A study of Homo sapiens with 3 samples.

Results

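The ZNF genes of chromosome 19 are a family of zinc finger transcription factors that lie side by side in large clusters. Members were all genes on that chromosome whose symbol was ZNF followed by a number and at most 1 letter, in RNA-seq gene tables of PLC, a human line established from hepatocellular carcinoma. The rule found 261 symbols of 55822 in the tables. Because Cufflinks merges overlapping genes, these symbols occupied 226 distinct loci of 52671, and loci are the unit counted below. Of them, 124 loci holding 152 symbols had a mean of at least 1 FPKM (fragments counted per transcript length and sequencing depth) over the libraries, and 102 did not. The loci compared were thus chosen by their symbol, their chromosome and their mean FPKM over the 3 libraries, and these mean levels are given as a description.

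There were 3 groups of 1 library each. Cells carried viral short hairpin RNAs against DIS3L2 (shDIS3L2), against HNRNPU (shHNRNPU, labelled shhnRNP U) or of non-targeting sequence (control, labelled NTC), and all were harvested 48 hours after infection. DIS3L2 is a ribonuclease that degrades uridylated RNA from the 3′ end, and HNRNPU encodes hnRNP U, a nuclear RNA-binding protein that also organises chromatin. The series set out to compare RNA from cells with each protein reduced. The number of hairpins per target is not stated in the labels, and nothing separates an effect of a hairpin from that of its target. With 1 library per group nothing was replicated, so the differences have no replicate check and no p-value is given.

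A typical protein of this family carries an array of C2H2 zinc fingers that reads DNA, often behind an N-terminal KRAB domain. The KRAB domain recruits the corepressor TRIM28, which brings in the histone H3 lysine methyltransferase SETDB1 and heterochromatin proteins. Many of these proteins silence transposable elements, and the clusters grew by tandem duplication in primate and earlier mammalian ancestors. Some members lack the KRAB domain and act by other means.

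In the translated GENCODE coding sequences, 211 of 246 ZNF symbols of chromosome 19, older symbols included, held a KRAB pattern. The pattern was defined as at least 12 identities over 25 positions of a consensus. That consensus came from all translated proteins, of any name, that matched a preset KRAB motif. ZNF genes of every chromosome and several related families, such as ZFP, ZSCAN and ZKSCAN, were left out of the genes compared. Among the remaining 18979 coding genes, 23 held the pattern, so this is no measure of it over all other genes. The median number of finger patterns was 13 in the expressed KRAB genes and 10 in those without the pattern, with a maximum of 36 in ZNF208.

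Promoter windows of members on which the results turn are given first, because stretches of letters in them recur among the members of 1 gene cluster. RefSeq promoter windows of 300 bases (GRCh38.p14, across the annotated start) were found for 214 of the 261 symbols. All stretches of 10 letters, counted on both strands, were ranked by their share among members less their share among all genes. CCTGATTGGA came out highest, in the windows of 42 members (19.6%), against 0.388% of 27305 genes with a window, members included. The stretches were picked by this contrast, so it is not a test of them. Its reverse complement TCCAATCAGG holds the letters of the CCAAT box. CTGTCACTCA, at rank 3, was in 33 of the 214 windows, against 0.385% of all genes. A second stretch as frequent among members, AGGCCCCGCC, was also in 3.13% of all genes. In the windows below, matches to CCTGATTGGA or CTGTCACTCA on either strand are in capitals, the rest in lower case, and no matches overlap. The first 3 belong to genes higher in shHNRNPU than in control, and the fourth to a gene of the same cluster that was not.
ZNF43, chr19:21836133-21836432, minus strand: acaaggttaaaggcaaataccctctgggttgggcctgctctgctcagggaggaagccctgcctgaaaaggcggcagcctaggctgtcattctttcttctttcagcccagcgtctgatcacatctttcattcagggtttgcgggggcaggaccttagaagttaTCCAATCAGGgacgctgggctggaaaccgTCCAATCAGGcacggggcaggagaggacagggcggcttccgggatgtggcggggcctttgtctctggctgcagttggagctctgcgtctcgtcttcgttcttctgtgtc
ZNF708, chr19:21329361-21329660, minus strand: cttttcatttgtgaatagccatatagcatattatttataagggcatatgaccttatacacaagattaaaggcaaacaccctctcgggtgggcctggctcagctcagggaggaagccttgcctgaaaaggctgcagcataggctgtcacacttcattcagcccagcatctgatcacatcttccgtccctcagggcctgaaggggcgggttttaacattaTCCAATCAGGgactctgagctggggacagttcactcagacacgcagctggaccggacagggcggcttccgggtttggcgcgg
ZNF492, chr19:22634074-22634373, plus strand: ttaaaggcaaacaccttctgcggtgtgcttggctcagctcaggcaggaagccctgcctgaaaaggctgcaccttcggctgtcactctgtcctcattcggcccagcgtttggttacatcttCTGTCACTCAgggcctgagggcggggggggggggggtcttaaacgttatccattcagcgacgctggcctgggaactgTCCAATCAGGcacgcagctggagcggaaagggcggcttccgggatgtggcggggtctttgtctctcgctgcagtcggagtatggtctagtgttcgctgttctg
ZNF91, chr19:23395422-23395721, minus strand: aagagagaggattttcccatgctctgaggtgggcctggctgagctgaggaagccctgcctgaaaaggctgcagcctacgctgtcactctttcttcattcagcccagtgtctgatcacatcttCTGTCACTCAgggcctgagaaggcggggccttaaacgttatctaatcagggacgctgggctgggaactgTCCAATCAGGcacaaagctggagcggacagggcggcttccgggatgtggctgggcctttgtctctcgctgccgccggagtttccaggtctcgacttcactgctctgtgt
The next pair belongs to the members with the highest and the lowest ratio in shHNRNPU against control among those above 0, and holds no match.
ZNF226, chr19:44164850-44165149, plus strand: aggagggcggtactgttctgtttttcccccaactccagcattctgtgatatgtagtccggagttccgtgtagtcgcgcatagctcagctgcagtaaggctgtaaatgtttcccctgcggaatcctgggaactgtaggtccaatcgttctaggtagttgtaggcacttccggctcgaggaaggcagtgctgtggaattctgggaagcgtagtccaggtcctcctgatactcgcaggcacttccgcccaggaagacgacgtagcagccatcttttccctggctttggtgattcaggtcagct
ZNF780B, chr19:40056182-40056481, minus strand: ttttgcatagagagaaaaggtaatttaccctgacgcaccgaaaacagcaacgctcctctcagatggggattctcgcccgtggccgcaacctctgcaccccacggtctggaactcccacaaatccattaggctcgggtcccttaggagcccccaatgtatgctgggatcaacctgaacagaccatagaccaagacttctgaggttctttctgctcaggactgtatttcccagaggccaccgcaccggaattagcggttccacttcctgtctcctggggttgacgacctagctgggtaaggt

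Depth worked out from single-exon genes was about 18.2 M fragments in shDIS3L2, 20.07 M in shHNRNPU and 22.7 M in control. The targeted genes went with the labels. DIS3L2 had 3.23 FPKM in shDIS3L2 and 11.2 in shHNRNPU, against 7.61 in control. HNRNPU had 33.5 FPKM in shHNRNPU and 232 in shDIS3L2, against 178 in control. All 10 hepatocyte and epithelial markers examined were above a mean of 1 FPKM. In shDIS3L2 against control 4 of them were lower and 1 higher by the size rule given below, and 9 intervals lay below and 1 above. In shHNRNPU against control 3 were lower and 0 higher, and 7 intervals lay below and 0 above. ALB had 0.856 FPKM in shDIS3L2 and 5.21 in shHNRNPU, against 11.8 in control, and the exception was FGB, with 17.9 FPKM in shDIS3L2 and 1.93 in shHNRNPU, against 6.21 in control. The part of these markers in the results on ZNF genes was not tested. Of the markers of leukocytes, fibroblasts and endothelium, PTPRC, CD3E, COL1A1, COL3A1 and VWF stayed below 1 FPKM in every library. PECAM1 was not matched, and CD68 could not be read because its locus is merged with EIF4A1.

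Most members had low levels. In RNA of a whole culture, fewer cells with a transcript and less of it per cell cannot be told apart. Over the 226 loci the median was 1.02 FPKM in shDIS3L2, 1.40 in shHNRNPU and 1.06 in control, and 25 loci were listed at 0 in all 3. Among the 124 expressed loci, the median was 2.50 FPKM in shDIS3L2, 3.26 in shHNRNPU and 2.16 in control, against 11.3, 11.7 and 10.6 over all 11786 loci at a mean of 1 or more. Only 11 members averaged 20 FPKM or more, 28 lay between 5 and 20, and 85 lay between 1 and 5. Just inside the threshold were ZNF555, ZNF549 and ZNF563, with means of 1.001, 1.01 and 1.04 FPKM, and just outside were ZNF160, ZNF383 and ZNF333, with 0.971, 0.963 and 0.960. A member expressed in 1 library only could pass this mean through that library alone, so its difference is partly set by the filter.

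Low levels came with wide intervals. The deposited interval, taken as 95%, reached a median of 36.0%, 29.9% and 34.9% of a member's FPKM to either side in shDIS3L2, shHNRNPU and control, against 11.8%, 11.4% and 10.7% over all loci. These intervals cover the estimate within a library and not the variation between cultures. Of the expressed loci, 83 held a single ZNF name, 20 joined several ZNF genes and 5 were merged with another coding gene. A further 16 joined 1 ZNF gene with a name not matched to a coding gene, mostly a noncoding or clone name. Among these 16 is ZNF358, whose locus also holds C19orf45. That symbol of an open reading frame was not matched, so the share of ZNF358 in its locus cannot be read. Bounds were the same in all 3 libraries for 67, and 97 overlapped no other expressed locus. Paralogs in these clusters are close in sequence, and how reads shared between them were assigned is not stated in the labels, so values of neighbours are not fully independent.

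The highest values were mostly those of merged loci and of members without a KRAB pattern. The locus of ZNF580 and ZNF581, merged with the splicing factor gene U2AF2 and with CCDC106, had 251 FPKM in shDIS3L2, 332 in shHNRNPU and 306 in control. ZNF497, merged with A1BG, had 82.5 FPKM in shDIS3L2, 117 in shHNRNPU and 116 in control, and ZNF653 was merged with ECSIT, which encodes a mitochondrial and Toll-signalling adaptor. In such loci the share of the ZNF gene cannot be read. Among loci with a single name, ZNF428, ZNF787, ZNF444 and ZNF414 were highest. ZNF787 had 45.1 FPKM in shDIS3L2, 59.1 in shHNRNPU and 53.1 in control, and ZNF444 had 31.9, 44.5 and 42.6 FPKM in the same order of libraries. Neither passed the size rule, explained below, in any comparison.

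Over loci with 1 ZNF gene, the 20 without a KRAB pattern had medians of 5.77 FPKM in shDIS3L2, 4.09 in shHNRNPU and 5.69 in control. These 20 include ZNF358, whose locus also holds C19orf45. The 77 with the pattern had medians of 2.05 FPKM in shDIS3L2, 2.72 in shHNRNPU and 1.80 in control. The highest locus with the pattern reached 22.7 FPKM in shDIS3L2, 33.9 in shHNRNPU and 13.1 in control.

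**Figure D1:**
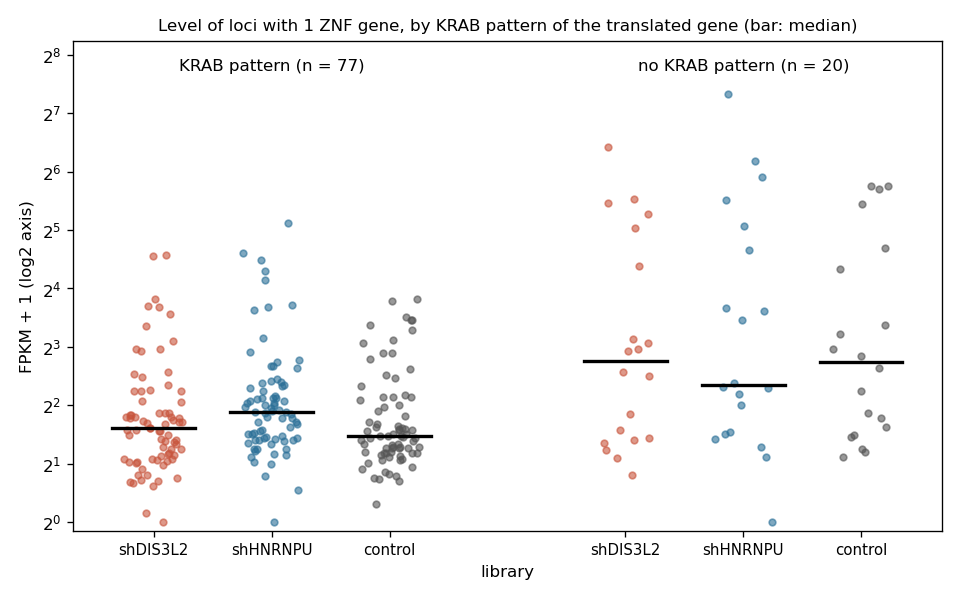
FPKM plus 1 (log2 axis) of expressed loci with 1 ZNF gene in each library, 77 with and 20 without a KRAB pattern in the translated gene; each point is a locus and the bar is the median. The points without the pattern extend to 84.7 FPKM in shDIS3L2, 159 in shHNRNPU and 53.1 in control, those with it to 22.7, 33.9 and 13.1. Points without the pattern include ZNF358, whose locus also holds C19orf45.

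Of 23 members with a described role, 12 were expressed at a mean of 1 FPKM or more. ZNF93, a repressor of LINE-1 elements, had 0.0207 FPKM in shDIS3L2 and 0.0189 in shHNRNPU, and was listed at 0 in control. ZNF382 and ZNF224, described as repressors of transcription, were listed at 0 in all 3 libraries, which can be a failed estimate, so their levels cannot be read. ZNF91, which represses SVA and LINE-1 elements, had 2.003 FPKM in shDIS3L2, 3.04 in shHNRNPU and 3.53 in control, with overlapping intervals throughout. ZNF274, which brings SETDB1 to the 3′ ends of other ZNF genes, had 9.32 FPKM in shDIS3L2, 6.54 in shHNRNPU and 7.69 in control, and its log2 ratios against control were 0.25 in shDIS3L2 and -0.20 in shHNRNPU. ZNF146, a member made almost only of fingers and without a KRAB domain, had 7.34 FPKM in shDIS3L2, 3.96 in shHNRNPU and 6.16 in control. Its interval in shHNRNPU lay below that of control, but the log2 ratio of -0.53 did not reach the size rule.

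Differences were read with a size rule. A locus was called higher or lower when log2 of the ratio between FPKM values, each plus 1, reached 1 or -1 in size, the intervals lay apart and both estimates had status OK. The ratio uses a pseudocount of 1 and therefore understates the change of members with low values. Every 2 of the 3 comparisons share a library, so their ratios are not independent of each other.

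In shDIS3L2 against control, 8 of the 124 member loci were higher and 5 were lower. That is 6.45% and 4.03%, against 8.94% and 7.58% of all 11786 loci. The members' median log2 ratio was 0.01, against 0.09 over all loci, 0.04 over 182 ZNF loci of other chromosomes and -0.13 over 727 other loci of chromosome 19. Intervals lay apart above control for 14 members and below it for 18 (11.3% and 14.5%), against 32.7% and 25.3% of all loci. Within the members at a mean of 1 to 5 FPKM these shares were 11.8% and 8.24%, against 20.7% and 15.2% of all loci at that level.

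The locus of ZNF585A and ZNF585B, a pair of KRAB paralogs, had the highest ratio in shDIS3L2. It had 9.75 FPKM (interval 7.35 to 12.2) in shDIS3L2 and 1.91 (0.686 to 3.14) in shHNRNPU, against 1.65 (0.661 to 2.63) in control, a log2 ratio of 2.02 for shDIS3L2. The shDIS3L2 library stands alone there, and the other libraries overlap. ZNF420, a KRAB protein that restrains p53 in the absence of stress, overlaps that locus and had 0.611 FPKM in shDIS3L2, 2.63 in shHNRNPU and 1.79 in control, with overlapping intervals.

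ZNF317, a KRAB gene with 13 finger patterns, had 22.6 FPKM (18.1 to 27.1) in shDIS3L2 and 12.2 (11.2 to 13.2) in shHNRNPU, against 7.38 (6.65 to 8.12) in control. None of these intervals overlap, and the log2 ratio was 1.49 in shDIS3L2 and 0.65 in shHNRNPU. ZNF257 had 22.7 FPKM (18.4 to 27.0) in shDIS3L2 and 11.4 (10.3 to 12.5) in shHNRNPU, against 10.0 (7.70 to 12.3) in control. Here shDIS3L2 was above both other libraries, which overlap, with a log2 ratio of 1.11. The remaining higher loci were ZNF677, ZNF254, ZNF529, ZNF235 and ZNF566, all between 2.27 and 4.96 FPKM in shDIS3L2 and between 0.246 and 1.41 FPKM in control. ZNF566 missed the rule after median-of-ratios rescaling of the libraries, at a log2 ratio of 0.96. It had 0.460 FPKM in shHNRNPU and 0.672 in control. It thus passed the filter only through shDIS3L2, and its difference is partly set by the filter.

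Among the lower loci, ZNF98 had 2.58 FPKM (1.24 to 3.92) in shDIS3L2 and 18.7 (15.4 to 22.1) in shHNRNPU, against 13.1 (10.4 to 15.7) in control. The shDIS3L2 library lies apart below the others, at a log2 ratio of -1.98, and the 2 higher libraries overlap in their intervals. ZNF729 had 0.119 FPKM in shDIS3L2 and 2.72 in shHNRNPU, against 1.86 in control, and its log2 ratio was -1.35 in shDIS3L2. ZNF99 was listed at 0 in shDIS3L2, against 3.28 FPKM in control, and an exact 0 in such a table can be a failed estimate, so no fold is given. With 0.724 FPKM in shHNRNPU, it passed the filter only through control, which partly sets its difference. An unnamed row that overlaps ZNF99 went the other way, with 11.7 FPKM (7.58 to 15.7) in shDIS3L2 and 33.8 (19.4 to 48.2) in shHNRNPU, against 4.73 (3.38 to 6.08) in control. ZNF524 and ZNF865 had rows of their own in shDIS3L2 (8.33 and 5.09 FPKM) and in shHNRNPU (12.1 and 9.20), but shared 1 merged row of 22.9 FPKM in control. Their calls therefore set a single gene against a merged locus, and the part of merging in them was not tested.

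In shHNRNPU against control, 10 member loci were higher and 7 were lower, 8.06% and 5.65%, against 8.32% and 7.46% of all loci. The median log2 ratio was 0.28 over the members, with 93 of 124 above 0, against 0.12 over all loci, 0.16 over ZNF loci of other chromosomes and 0.17 over other loci of chromosome 19. Intervals lay apart above control for 33 members and below it for 12 (26.6% and 9.68%), against 34.9% and 23.5% of all loci. The same rescaling lowered the median of all loci from 0.12 to -0.0047 and that of the members to 0.18, and changed the members' split to 7 higher and 8 lower by the size rule (5.65% and 6.45%, against 6.45% and 9.16% of all loci) and 21 above and 15 below by intervals (16.9% and 12.1%, against 27.1% and 29.8% of all loci).

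**Figure D2:**
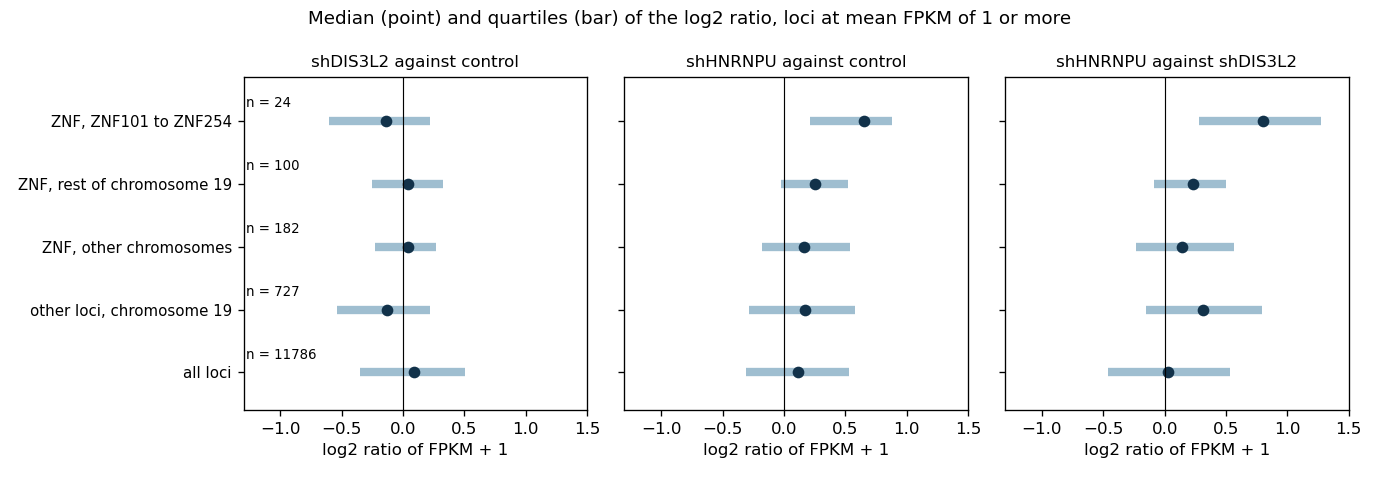
Median (point) and quartiles (bar) of the log2 ratio of FPKM plus 1 in each comparison, for ZNF loci from ZNF101 to ZNF254, the other ZNF loci of chromosome 19, ZNF loci elsewhere, other loci of chromosome 19 and all loci. In shHNRNPU against control the first set has a median of 0.65 and all loci 0.12.

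ZNF226, a KRAB gene with 17 finger patterns, had the highest ratio in shHNRNPU. It lies at 44669226 to 44682534 of chromosome 19 (hg19, as are all gene positions here). Its level was 6.62 FPKM (4.41 to 8.82) in shDIS3L2 and 21.5 (18.1 to 24.9) in shHNRNPU, against 3.45 (2.14 to 4.75) in control. The shHNRNPU interval lies above both others, which overlap, and the log2 ratios were 2.34 for shHNRNPU and 0.78 for shDIS3L2. The locus has 1 name, the same bounds in all libraries and no overlapping expressed locus.

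ZNF428, a short member with 1 finger pattern and no KRAB pattern, was the most abundant locus called, at 44111371 to 44124026. It had 84.7 FPKM (79.5 to 90.0) in shDIS3L2 and 159 (149 to 169) in shHNRNPU, against 52.8 (49.2 to 56.4) in control, and no intervals overlap. Against control, shHNRNPU had a log2 ratio of 1.58 and shDIS3L2 one of 0.67. A merged locus of SRRM5 and ZNF576 overlaps it, and without strand information reads of the overlap cannot be told apart. The merged locus of ZNF443, ZNF490, ZNF564, ZNF709 and ZNF799 had 5.42 FPKM (3.19 to 7.66) in shDIS3L2 and 7.45 (6.32 to 8.59) in shHNRNPU, against 3.12 (0.0467 to 6.20) in control. The control interval almost reaches that of shHNRNPU, and the log2 ratio of 1.04 fell to 0.91, below the rule, after rescaling.

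The largest decrease above 0 was that of the merged paralogs ZNF780A and ZNF780B, whose promoter window is shown above for ZNF780B. The locus, at 40534167 to 40596845 with the same bounds in all libraries, had 17.4 FPKM (13.2 to 21.6) in shDIS3L2 and 1.56 (0.162 to 2.96) in shHNRNPU, against 14.8 (11.4 to 18.2) in control. The shHNRNPU library is far below the others, which overlap, and its log2 ratio was -2.62. ZNF846 had 13.1 FPKM in shDIS3L2 and 4.09 in shHNRNPU, against 12.8 in control, a log2 ratio of -1.43 in shHNRNPU, but its row in control was merged with the overlapping CTD-2623N2.3, so the ratio compares loci of different extent. ZNF71 had 3.77 FPKM in shDIS3L2 and 2.21 in shHNRNPU, against 5.92 in control, a log2 ratio of -1.11. Further lower calls were ZNF865 and ZNF99, and ZNF526 and ZNF552, which were listed at 0 in shHNRNPU. ZNF526 had 4.64 FPKM in shDIS3L2 and 6.81 in control, and ZNF552 had 2.49 and 4.72. A merged locus that overlaps ZNF552 had 8.30 FPKM in shHNRNPU and 5.37 in control, with overlapping intervals, whereas no other row overlaps ZNF526.

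**Figure D3:**
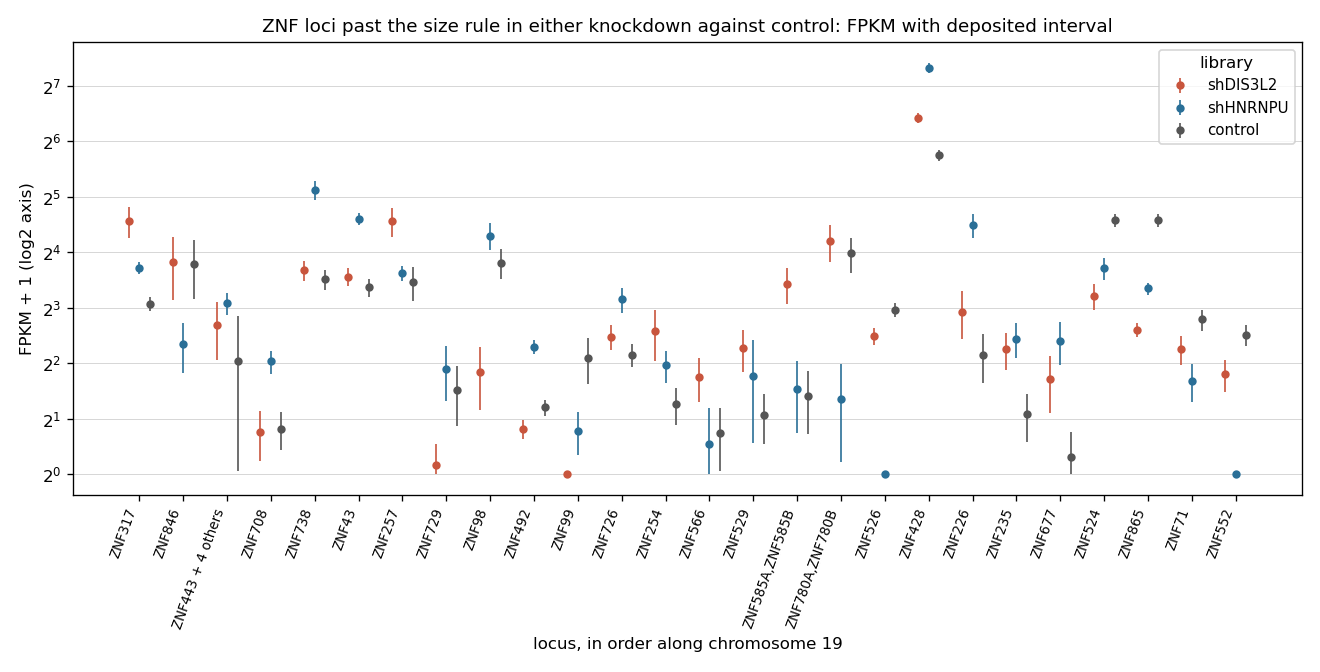
FPKM plus 1 (log2 axis) with the deposited interval for the 26 member loci past the size rule in either knockdown against control, in order along the chromosome; ZNF443 stands for a locus of 5 merged members. ZNF226 is at 21.5 FPKM in shHNRNPU and 3.45 in control, and the locus of ZNF780A and ZNF780B at 1.56 and 14.8.

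By the size rule 2 of 124 members were higher in both knockdowns (1.61%, against 2.36% of all loci) and 2 were lower in both (1.61%, against 2.60% of all loci). ZNF677, a KRAB gene described as a tumour suppressor that is methylated in several cancers, had 2.27 FPKM (1.14 to 3.41) in shDIS3L2 and 4.30 (2.91 to 5.68) in shHNRNPU, against 0.246 (0 to 0.702) in control. ZNF235 had 3.76 FPKM (2.68 to 4.84) in shDIS3L2 and 4.46 (3.25 to 5.66) in shHNRNPU, against 1.12 (0.505 to 1.74) in control. For both genes the knockdown libraries overlap each other and lie above control. These were the 2 members higher in both. Those lower in both were ZNF865 and ZNF99, whose merged row in control and overlapping row of the other direction are given above. None of the 26 loci called in either knockdown was called in opposite directions. No share over all loci was worked out for this count, and both comparisons use the same control library, so agreement of the knockdowns cannot be read from it.

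By position, the 226 loci formed 17 runs separated by gaps of more than 1 Mb, 9 of which held at least 3 expressed loci. Over these 9 runs the median log2 ratio of shHNRNPU against control, taken over expressed loci, lay between 0.03 and 0.65. The lowest was that of the run from ZNF807 to ZNF792, with 5 of 6 loci expressed. The highest median belonged to the run from ZNF101 to ZNF254, at 19779601 to 24312654 of chromosome 19 (hg19), next to the centromere on the short arm. It holds 39 loci, of which 24 were expressed, and is described further because its median was the highest. The next medians were 0.52 for the run from ZNF653 to ZNF791 and 0.48 for that from ZNF575 to ZNF296. Of their loci, 10 of 20 and 9 of 21 were expressed.

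**Figure D4:**
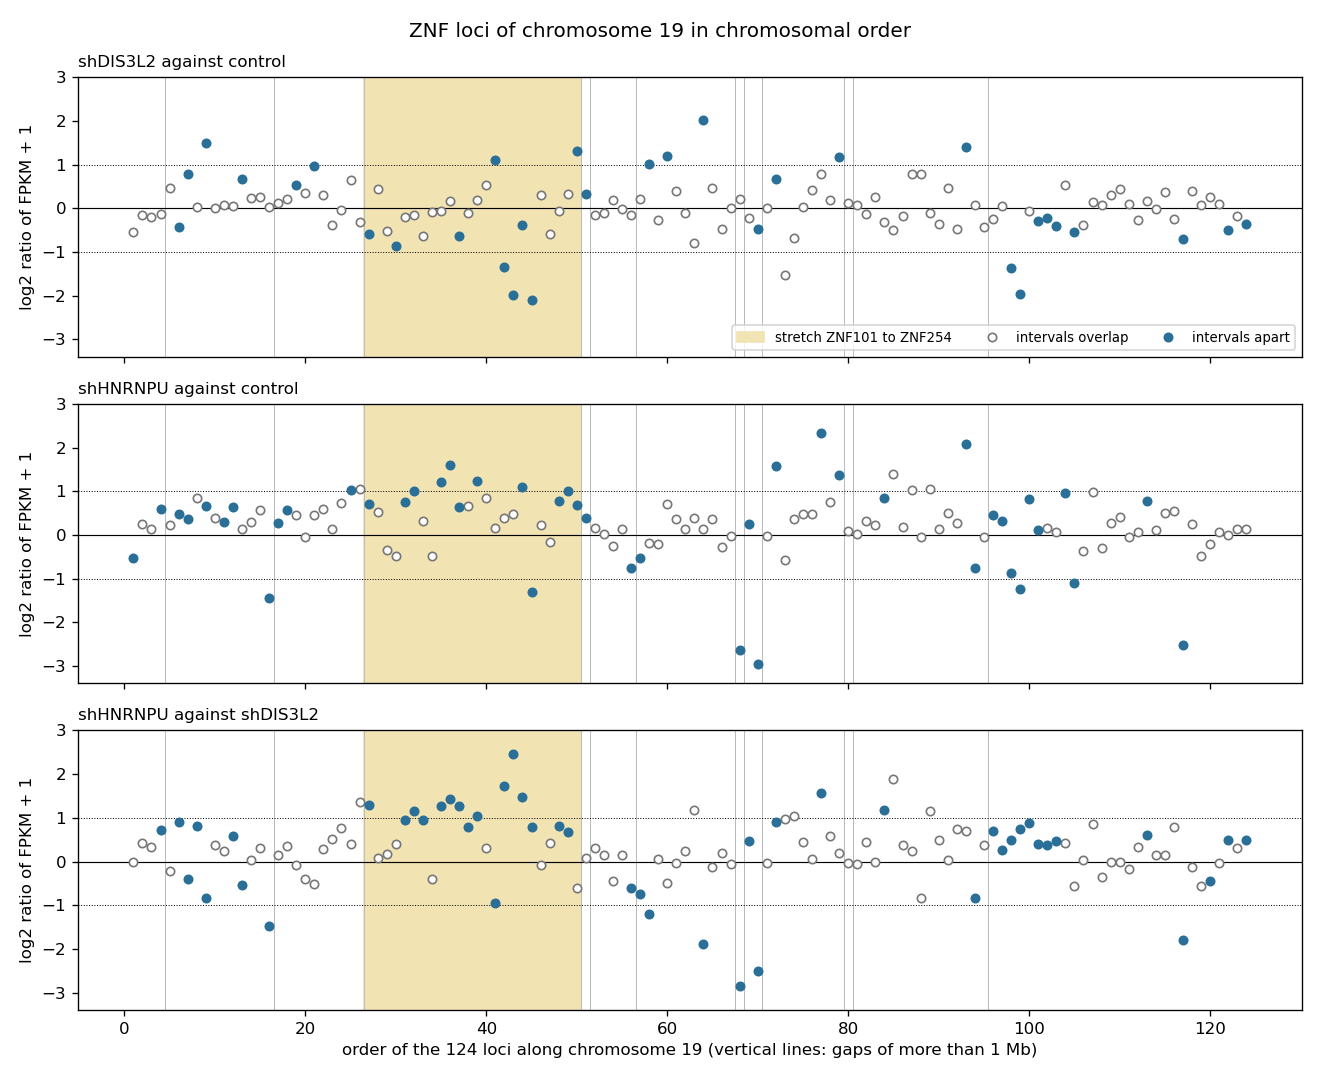
Log2 ratio of FPKM plus 1 for the 124 expressed ZNF loci in order along chromosome 19 in each comparison; filled points have intervals apart, dotted lines mark the size threshold and shading marks the stretch from ZNF101 to ZNF254. In shHNRNPU against shDIS3L2, 15 of the 24 shaded loci are filled above 0 and 1 below.

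In this cluster 19 of the 24 loci had a ratio above 0 in shHNRNPU against control. Intervals lay above control for 11 and below it for 1 (45.8% and 4.17%, against 34.9% and 23.5% of all loci). After rescaling they lay above for 7 of the 24 and below for 2, against 27.1% and 29.8% of all loci. By the size rule 5 were higher and 1 lower (20.8% and 4.17%, against 8.32% and 7.46% of all loci). Over the 11 cluster loci with the same bounds in all libraries, 1 was higher and 0 lower (9.09% and 0%). Among these 11, intervals lay above control for 6 and below it for 0. In shHNRNPU against shDIS3L2 the median over the 24 loci was 0.81, with 15 intervals above and 1 below (62.5% and 4.17%, against 31.8% and 28.4% of all loci). By the size rule 9 were higher and 0 lower there (37.5% and 0%, against 10.2% and 10.5% of all loci). Of these 9, 2 had the same bounds in all libraries. In shDIS3L2 against control the median was -0.14, with 2 intervals above and 7 below (8.33% and 29.2%, against 32.7% and 25.3% of all loci). The 100 other member loci had medians of 0.04 in shDIS3L2 against control, 0.25 in shHNRNPU against control and 0.23 in shHNRNPU against shDIS3L2. Over the span of the cluster lie 10 expressed loci of other genes, some of which overlap member loci, as CTD-2561J22.2 overlaps ZNF738. Their median was -0.32 in shHNRNPU against control, with 2 intervals above and 3 below.

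ZNF43, at 21987752 to 22035467, was the most abundant single-name member of the cluster called in shHNRNPU. It had 10.8 FPKM (9.46 to 12.2) in shDIS3L2 and 23.3 (21.5 to 25.1) in shHNRNPU, against 9.35 (8.21 to 10.5) in control, a log2 ratio of 1.23 for shHNRNPU. The shHNRNPU interval lies above both others, which overlap. ZNF708 had 0.695 FPKM (0.182 to 1.21) in shDIS3L2 and 3.11 (2.52 to 3.69) in shHNRNPU, against 0.765 (0.356 to 1.17) in control. Its shHNRNPU interval also lies above both others, which overlap, at a log2 ratio of 1.22. It was below 1 FPKM in both other libraries and passed the filter only through shHNRNPU, so this difference is partly set by the filter. ZNF492, whose coding sequence held 12 finger patterns and no KRAB pattern, had 0.759 FPKM (0.558 to 0.961) in shDIS3L2 and 3.94 (3.49 to 4.38) in shHNRNPU, against 1.31 (1.07 to 1.55) in control. No intervals overlap there, and shDIS3L2 was lowest. The bounds of ZNF43, ZNF708 and ZNF492 differed between libraries, so their ratios can compare loci of different extent. ZNF726 had 4.58 FPKM in shDIS3L2 and 7.89 in shHNRNPU, against 3.44 in control, a log2 ratio of 1.001 that only just met the rule. After rescaling, ZNF492 and ZNF726 missed it, with ratios of 0.99 and 0.87.

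ZNF738 had 11.9 FPKM in shDIS3L2 and 33.9 in shHNRNPU, against 10.4 in control, but its row in shHNRNPU was merged with the overlapping CTD-2561J22.2, so its ratio of 1.61 compares loci of different extent. ZNF85 had 0.882 FPKM in shDIS3L2 and 3.19 in shHNRNPU, against 1.11 in control, and its log2 ratio of 0.99 fell just short of the rule. The cluster was not uniform: ZNF431, ZNF90 and the merged ZNF626 and ZNF737 had ratios of -0.49, -0.35 and -0.47 in shHNRNPU against control, all with overlapping intervals, and ZNF99 was lower, although the unnamed row that overlaps it was higher.

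**Figure D5:**
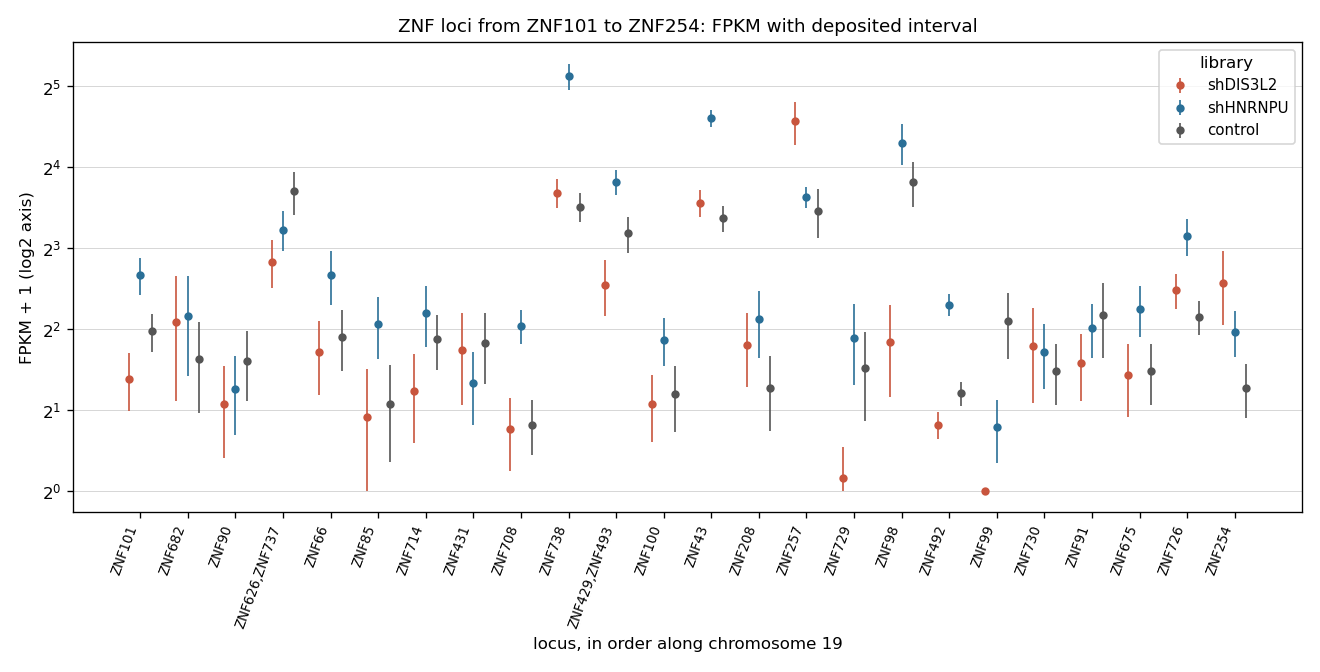
FPKM plus 1 (log2 axis) with the deposited interval in each library for the 24 expressed ZNF loci from ZNF101 to ZNF254, in order along the chromosome. The shHNRNPU interval lies above the control interval at 11 loci and below it at 1, ZNF99.

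The promoter stretches printed above fall mostly in this cluster. CCTGATTGGA was in 25 of its 28 windows (89.3%) and in 17 of 186 member windows elsewhere on the chromosome (9.14%), and CTGTCACTCA was in 22 and 11. Among loci with 1 ZNF gene and a window, the median ratio of shHNRNPU against control was 0.67 in 23 with CCTGATTGGA and 0.26 in 63 without it. Outside the cluster it was 0.57 in 6 with the stretch and 0.27 in 62 without, and inside it only 1 locus lacked the stretch. For CTGTCACTCA the median was 0.60 in 16 with it and 0.34 in 70 without, but inside the cluster it was 0.60 in 14 with it and 0.96 in 4 without. Members with the stretch are also neighbours and paralogs, so position, relatedness and promoter letters cannot be told apart here.

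In shHNRNPU against shDIS3L2 over all members, 11 loci were higher and 6 lower, 8.87% and 4.84%, against 10.2% and 10.5% of all loci. The median was 0.31, against 0.03 over all loci and 0.31 over other loci of chromosome 19. Intervals lay above for 34 members and below for 14, 27.4% and 11.3%, against 31.8% and 28.4% of all loci. ZNF98, with 18.7 FPKM in shHNRNPU and 2.58 in shDIS3L2, had the highest ratio at 2.47, and the locus of ZNF780A and ZNF780B the lowest at -2.84.

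The partners of KRAB proteins were read from a list of 26 corepressor genes, 25 of which were above a mean of 1 FPKM. SETDB1 was listed at 0 in all 3 libraries and could not be read. TRIM28 had 230 FPKM (221 to 239) in shDIS3L2 and 305 (292 to 319) in shHNRNPU, against 218 (208 to 228) in control. Its interval in shHNRNPU lay above both others, at a log2 ratio of 0.48 that did not reach the size rule. In shDIS3L2 against control 1 of the 25 was called higher and 0 lower, against 8.94% and 7.58% of all loci. Intervals lay above control for 8 and below it for 4, against 32.7% and 25.3% of all loci. The gene called was FAM208A, a subunit of the HUSH silencing complex. It had 15.3 FPKM in shDIS3L2 and 6.99 in shHNRNPU, against 4.21 in control, a log2 ratio of 1.65 in shDIS3L2. None of the 25 was called in shHNRNPU against control, where 8.32% of all loci were higher and 7.46% lower. Intervals lay above control for 10 and below it for 7, against 34.9% and 23.5% of all loci. Between the knockdowns 0 were higher and 2 lower in shHNRNPU, against 10.2% and 10.5% of all loci. These 2 were FAM208A, at a log2 ratio of -1.03, and CBX3. CBX3, which encodes the heterochromatin protein HP1 gamma, had 65.8 FPKM in shHNRNPU and 160 in shDIS3L2, a log2 ratio of -1.27 between them, with 91.5 FPKM in control.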

How the data were processed

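RNA-seq gene tables of 3 PLC libraries, 1 per group, were used. Per the submitters' processing notes, TopHat2 2.0.12, Cufflinks 2.2.1 and build hg19 were used. Per the file headers, the deposited values are FPKM per gene with both bounds of an interval and an estimation status. The interval was taken as 95%, its level being not given in the sources used here, nor are the annotation release, the strandedness and the handling of multiply mapped fragments. Gene identifiers in the tables differ between libraries, as when each library is assembled on its own, so bounds and merged names can differ too.

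Rows were joined over libraries by symbol, the row of highest FPKM was taken for a symbol with several, and symbols with the same rows counted as 1 locus. Loci with a mean of at least 1 FPKM were compared on a log2 scale after adding a pseudocount of 1 to the deposited FPKM, with the size rule, in 3 comparisons and without a test. Fragment counts were not used here: of low estimates, 37.4%, 34.5% and 35.8% in shDIS3L2, shHNRNPU and control came out as whole fragments within 0.02, which does not allow a count test. Depths are medians over 15, 14 and 15 single-exon genes of at least 2000 bases.

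Members and gene lists were chosen with earlier results of these data known. Members named were the 10 of highest mean FPKM, up to 10 per direction past the rule in each knockdown, up to 10 past it between the knockdowns, those past it in both, 23 with a described role and the 3 on either side of the filter; not each of them is given with values, and members of the cluster described by position were named after their values were seen. GENCODE coding sequences were translated for finger and KRAB patterns, since no protein table was used, and promoter windows came from RefSeq. Alternatives tried were a pseudocount of 0.1 or 5, other FPKM filters, a size threshold of 0.5, intervals alone, median-of-ratios rescaling, subsets of loci and a gap of 0.5 Mb. Python 3.11.15 with pandas 2.3.3, numpy 2.4.6 and matplotlib 3.10.9 was used.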

Additional observations from a re-analysis of the deposited data

How the results depend on the processing

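The count of member loci past the size rule was 13 in shDIS3L2 against control, 17 in shHNRNPU against control and 17 in shHNRNPU against shDIS3L2. In that order of comparisons it was 5, 5 and 5 with a pseudocount of 5, and 5, 9 and 8 over the 39 loci at a mean of 5 FPKM or more. It was 23, 36 and 38 with a size threshold of 0.5, and 32, 45 and 48 by intervals alone. Over the 67 loci with the same bounds in every library it was 7, 9 and 8, where the 7 in shDIS3L2 were all higher and fewer loci were compared. Over the 83 loci with a single name it was 10 in shHNRNPU against control, and within 1.5 times in the other comparisons. A pseudocount of 0.1, no filter, rescaling, leaving out loci listed at 0 and leaving out pseudogene symbols kept each count within 1.5 times. Shares over all loci are given above for the main setting and intervals alone, and for rescaling in shHNRNPU against control. Without such shares, the other counts show how the number of members moves with the setting, and not whether members differ from all loci. The median in shHNRNPU against control was 0.14 both with a pseudocount of 5 and with no filter on FPKM, and so was that in shHNRNPU against shDIS3L2, which was 0.41 with a pseudocount of 0.1. In the cluster from ZNF101 to ZNF254, the median in shHNRNPU against control lay between 0.53 (rescaled, with 7 intervals above and 2 below) and 0.78 (pseudocount of 0.1). It was 0.70 over the 11 loci with the same bounds and 0.64 over the 7 at a mean of 5 FPKM or more. For the named members, 359 of the values under another pseudocount or rescaling stayed on their side of the rule and within the range their intervals allow. Within that range 21 missed the rule, 4 values newly passed it, and 39 moved beyond the range. Some of the 39 missed the rule as well, such as ZNF71 in shHNRNPU against control, at -0.60 with a pseudocount of 5. None of the called ones changed sign. The alternatives for the cluster other than the gap and the pseudocount were chosen after seeing the data. No paired analysis was possible because each group holds 1 library, and for the same reason no replicate could be left out. Members below 5 FPKM had intervals that reached a median of 47.9%, 39.5% and 44.9% to either side in shDIS3L2, shHNRNPU and control, and the part of depth in this was not tested.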
